A study of Paralichthys olivaceus with 24 samples.

Results

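Of the 13026 probes for assembled transcript contigs (target codes beginning JFC) that were measurable in the spleen of the Japanese flounder, Paralichthys olivaceus, 65 had a higher mean signal after poly(I:C) than after water at both temperatures and at both times. They were chosen by that property: a probe belonged to the set if the 3 arrays of 1 or more groups all showed it well above background and if, in the deposited log2 values, the mean of the poly(I:C) arrays exceeded the mean of the water arrays by at least 0.58, a fold of 1.49, in each of 4 settings, written below as 25 °C/24 h, 25 °C/3 h, 15 °C/24 h and 15 °C/3 h. The array carried 14481 probes in all, 14052 of them for such contigs, and no further contig probe met the 4 differences when the requirement on background was dropped.

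Spleen RNA labelled with Cy3 was hybridised to 24 single-colour Agilent arrays, 3 for each of 8 groups. The groups were poly(I:C) at 25 °C/24 h, poly(I:C) at 25 °C/3 h, poly(I:C) at 15 °C/24 h, poly(I:C) at 15 °C/3 h, and the 4 matching groups given DEPC-treated water, the control. The temperature is that at which the fish were reared after treatment, and the time is that between treatment and sampling. The labels give no strain, age or dose. Nothing in them says that the arrays of a group came from different fish, so the p-values below reflect only the variation among these samples, which may be technical.

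Poly(I:C) is a synthetic double-stranded RNA that stands in for the RNA of a replicating virus. In vertebrates, fish included, such RNA is bound by Toll-like receptors in endosomes and by RIG-I-like receptors in the cytosol, and the signal from both leads to the release of type I interferons. Interferon then acts through its receptor and the JAK-STAT pathway on many genes whose products block viral entry, translation or RNA stability, or take part in antigen presentation and chemokine signalling. The spleen is a main site of immune cells and of blood filtration in fish, which lack lymph nodes and whose body temperature follows that of the water.

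The files name each member only by the contig its probe targets, and 0 of the 65 contig codes matched the RefSeq gene table, so members are given here by code and no gene, function, position or sequence is attached to them. No other probe target on the array was found in that table either (0 matched), so the tissue label could not be set against spleen markers. In bulk tissue, fewer cells of a type and less RNA per cell cannot be told apart. Signals below are log2 values relative to the 75th percentile of the same array, so a probe at 0 was as bright as that percentile. They compare 1 probe between arrays and do not rank transcripts by abundance.

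The size of the response set the 4 settings apart. At 25 °C/24 h the difference between poly(I:C) and water ran from 0.61 to 4.30 over the 65 members, with a median of 1.29 (2.44-fold). At 25 °C/3 h it ran from 0.87 to 8.12, with a median of 3.91 (15.0-fold). At 15 °C/24 h it ran from 0.81 to 8.59, with a median of 3.76 (13.5-fold), and at 15 °C/3 h from 0.59 to 6.27, with a median of 1.27 (2.42-fold). The late setting in warm fish and the early setting in cool fish thus held the small responses of the set, and the early warm and late cool settings the large ones. The median over all 13377 tested probes was -0.159, -0.154, -0.005 and -0.048 in the same order of settings. All of these differences were used to choose the members, so they describe the set and carry no test.

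**Figure D1:**
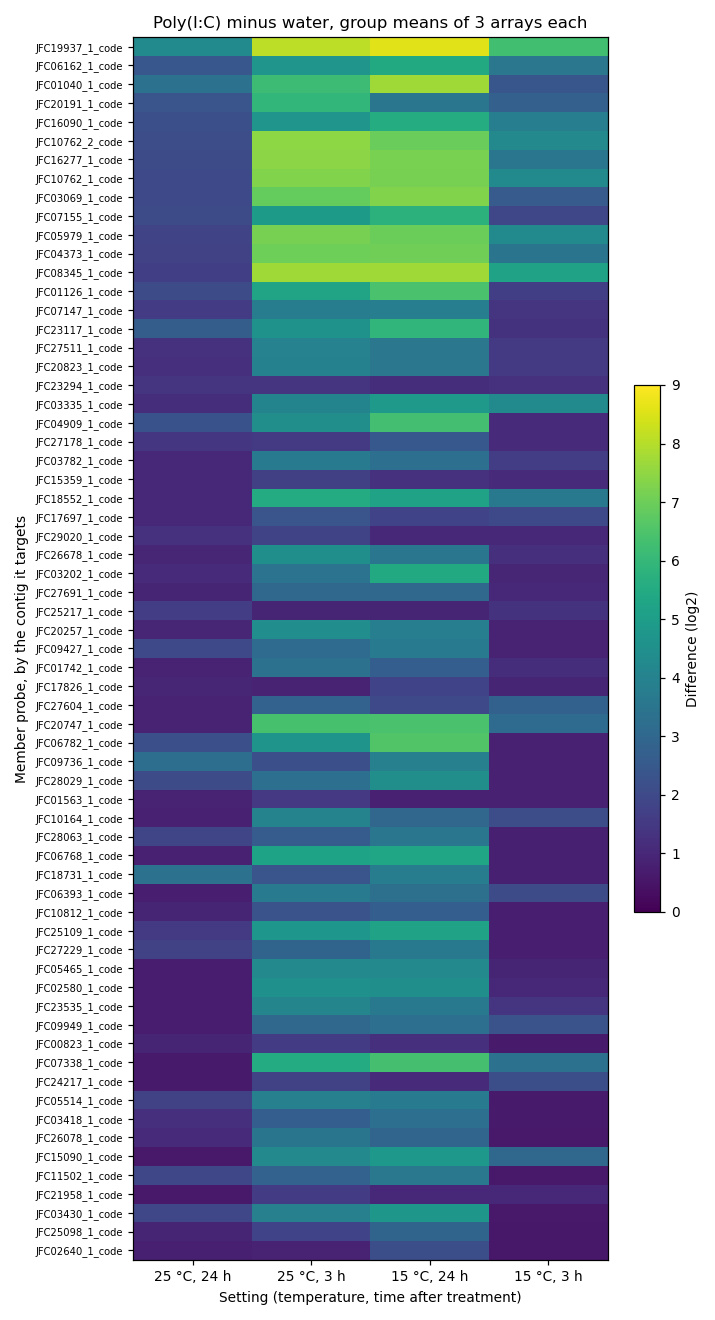
Difference between poly(I:C) and water (log2, colour scale from 0 to 9) for each of the 65 members, in rows named by target contig and ordered by the smallest of their 4 differences, in the 4 settings in columns. The 2 middle columns, 25 °C/3 h and 15 °C/24 h, hold medians of 3.91 and 3.76, and the outer columns, 25 °C/24 h and 15 °C/3 h, medians of 1.29 and 1.27.

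In the warm fish at 24 h and the cool fish at 3 h, few probes reached the minimum at all. Of the 13377 tested probes, 6.59% were at least 0.58 higher with poly(I:C) at 25 °C/24 h, 15.8% at 25 °C/3 h, 17.9% at 15 °C/24 h and 6.52% at 15 °C/3 h, and 0.561% reached it in all 4. Among contig probes that reached the minimum in the 3 settings other than 25 °C/24 h, 65 of 218 (29.8%) also reached it there. The corresponding numbers were 65 of 67 (97.0%) for 25 °C/3 h, 65 of 81 (80.2%) for 15 °C/24 h and 65 of 274 (23.7%) for 15 °C/3 h. A fall of at least 0.58 in all 4 settings was seen for 29 contig probes.

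The minimum cut through a continuous range. Just inside it lay JFC02640_1_code, JFC25098_1_code and JFC03430_1_code, whose smallest differences were 0.589, 0.593 and 0.603. Just outside lay JFC00072_1_code, JFC17196_1_code and JFC25377_1_code, at 0.572, 0.567 and 0.557. The members just inside had their smallest difference at 15 °C/3 h, while that of the 3 probes just outside lay at 25 °C/24 h or at 15 °C/24 h.

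Size classes were counted from the deposited differences that chose the members, also where water was below background. They set the same 2 settings apart from the others. A response of at least 1, which is a doubling, was found for 41 members at 25 °C/24 h, 62 at 25 °C/3 h, 62 at 15 °C/24 h and 40 at 15 °C/3 h. A response of at least 4 was found for 1, 30, 28 and 6 members in that order of settings, and one of at least 6 for 0, 10, 14 and 1. The largest of a member's 4 responses fell at 15 °C/24 h for 36 members, at 25 °C/3 h for 26, at 25 °C/24 h for 2 and at 15 °C/3 h for 1. The smallest fell at 25 °C/24 h for 33 members and at 15 °C/3 h for 28. For 53 of the 65, both the 25 °C/3 h and the 15 °C/24 h responses exceeded the other pair.

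As a set, the members were brighter on each of the 12 poly(I:C) arrays than on any water array. Their median signal per array ran from -0.28 to 2.99 on poly(I:C) arrays and from -1.55 to -0.40 on water arrays, while the median of all tested probes stayed between -1.76 and -1.52 on every array. By group, the median of the members was 0.15 with poly(I:C) against -1.32 with water at 25 °C/24 h, and 2.77 against -1.10 at 25 °C/3 h. It was 2.88 against -1.42 at 15 °C/24 h, and 0.94 against -0.82 at 15 °C/3 h. The lowest poly(I:C) array was replicate 2 at 25 °C/24 h, and the highest water array was replicate 3 at 25 °C/3 h.

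**Figure D2:**
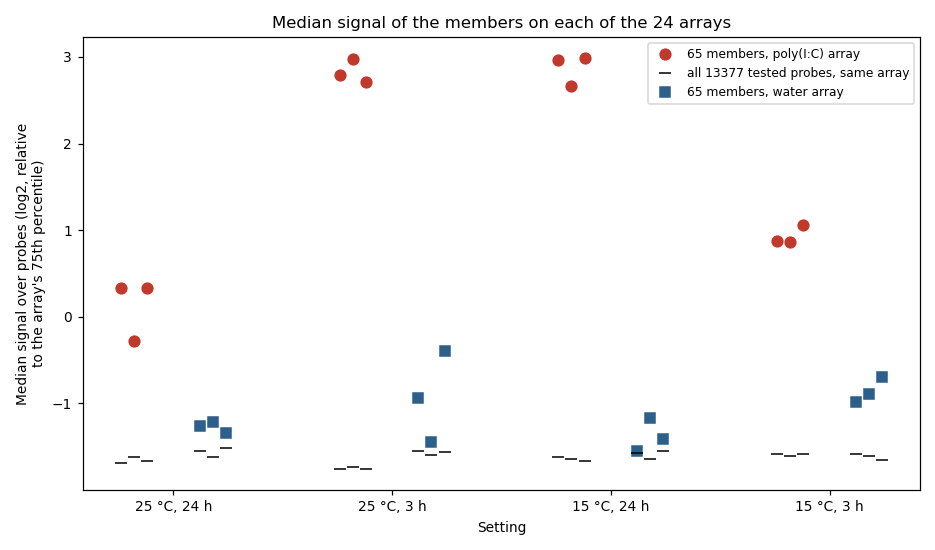
Median signal (log2, relative to the 75th percentile of the array) of the 65 members on each array, with poly(I:C) arrays as red circles left of water arrays as blue squares in each setting, and the median of all 13377 tested probes on the same array as a black dash. The poly(I:C) arrays lie between -0.28 and 2.99, all above the water arrays, which lie between -1.55 and -0.40. The members were chosen on these arrays, so the gap within a setting is a description.

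Member by member the arrays overlapped in some settings. All 3 poly(I:C) arrays lay above all 3 water arrays for 56 members at 25 °C/24 h, where 12.6% of all tested probes did so. This held for 63 members at 25 °C/3 h (20% of tested probes), for 64 at 15 °C/24 h (26.6%) and for 53 at 15 °C/3 h (7.28%). It held in all 4 settings for 45 members, against 0.785% of tested probes, in 3 settings for 16 members and in 2 settings for 4. The rule used the same arrays, so these counts describe how cleanly the members met it.

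Members varied more between arrays of 1 group than probes in general. The median SD over the 3 arrays of a group was 0.35 for members and 0.18 for all tested probes with poly(I:C) at 25 °C/24 h, and 0.47 and 0.20 with water in that setting. It was largest with water at 25 °C/3 h, at 0.57 for members and 0.27 for all tested probes. It was smallest with poly(I:C) at 15 °C/24 h, at 0.19 and 0.17.

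Most members were measurable in water as well. Of the 65, 53 were well above background on all 24 arrays, and the other 12 on at least 13. With poly(I:C), all 65 were well above background on 3 of 3 arrays in each setting, except 1 member at 15 °C/3 h. With water, 5 members were above background on 0 of 3 arrays in at least 1 setting, and their folds there are lower bounds. A bound sets the poly(I:C) mean against, on each water array, the higher of the probe's own signal and the dimmest signal that was still well above background there.

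The strongest response of the set in each of the 4 settings was that of JFC19937_1_code. Its signals were 2.08, 1.44 and 1.48 with poly(I:C) at 25 °C/24 h, against -2.13, -2.66 and -3.1 with water, a 19.7-fold difference. At 25 °C/3 h they were 7.47, 6.98 and 6.55 with poly(I:C), against -2.39, -0.90 and -0.06 with water, which is 277.5-fold. The water arrays of that setting were widely spread, and every poly(I:C) array stood above them. At 15 °C/24 h the signals were 5.21, 6.32 and 6.23 with poly(I:C), against -2.99, -2.28 and -2.75 with water, a 386.2-fold difference. At 15 °C/3 h they were 3.75, 4.60 and 4.23 with poly(I:C), against -2.52, -2.69 and -1.03 with water, which is 77.3-fold. The groups overlapped in no setting.

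JFC01040_1_code had the second-largest response at 25 °C/24 h. At 15 °C/24 h it was named for the size of its difference, but its water arrays there were below background and its rank was not measured. Its poly(I:C) signals at 15 °C/24 h were 2.75, 2.86 and 2.59, against -4.86, -4.74 and -5.41 with water, where no water array was well above background, so the response was at least 144.7-fold. At 25 °C/24 h the poly(I:C) signals were -1.25, -1.11 and -0.63, against -4.43, -3.92 and -4.87 with water, a difference of 3.41. At 25 °C/3 h the response was 72.6-fold and at 15 °C/3 h it was 5.31-fold. Of the water arrays, 2 of 3 were above background in each of the 25 °C settings, and 3 of 3 at 15 °C/3 h.

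JFC08345_1_code had the second-largest response at both 3 h settings and the widest span over the settings, 6.04 log2 units between its largest and its smallest response. At 25 °C/24 h its signals were -2.26, -2.82 and -2.16 with poly(I:C), against -3.68, -3.53 and -5.05 with water, 3.19-fold. At 25 °C/3 h they were 3.03, 3.20 and 3.14 with poly(I:C), against -3.31, -6.05 and -4.42 with water, 210.1-fold. The fold was nearly the same, 210.2, at 15 °C/24 h, where the signals were 2.29, 2.37 and 2.53 with poly(I:C), against -5.90, -4.17 and -5.88 with water. In both of those settings the spread lay in the dim water arrays, while the poly(I:C) arrays lay close together. The probe was above background on 2 of 3 water arrays in each 25 °C setting and on 1 of 3 at 15 °C/24 h, so the size of these folds rests on dim signals. At 15 °C/3 h the response was 36.7-fold.

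JFC06162_1_code had, after JFC19937_1_code, the largest response in its weakest setting. That setting was 25 °C/24 h, where its signals were 1.71, 1.22 and 2.12 with poly(I:C), against 0.10, -0.93 and -1.47 with water, 5.46-fold. At 25 °C/3 h they were 6.89, 6.93 and 6.66 with poly(I:C), against 2.31, 1.42 and 2.67 with water, 25.9-fold. Its water signal was thus higher at 3 h than at 24 h in warm fish. At 15 °C/24 h they were 4.62, 4.46 and 4.52 with poly(I:C), against -1.55, -0.47 and -0.78 with water, 44.2-fold. At 15 °C/3 h they were 6.68, 6.95 and 7.02 with poly(I:C), against 3.16, 3.45 and 3.33 with water, 11.9-fold. This member was bright with poly(I:C) at 3 h at both temperatures, and its large response at 15 °C/24 h went with a low signal in water.

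**Figure D3:**
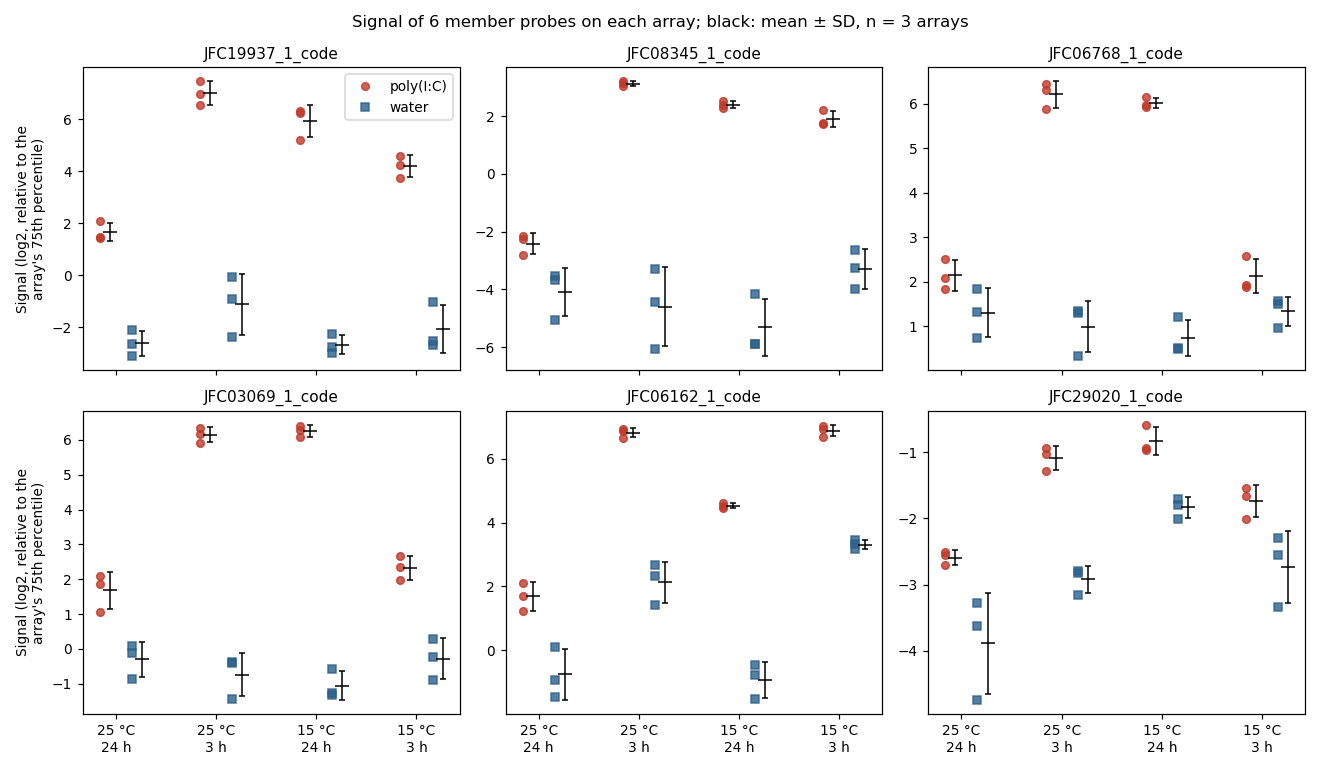
Signal of 6 members on each of the 24 arrays (log2, relative to the 75th percentile of the array), with poly(I:C) as red circles left of water as blue squares in each setting and the mean ± SD of 3 arrays in black. In JFC06768_1_code and JFC03069_1_code the poly(I:C) arrays stand highest at 25 °C/3 h and at 15 °C/24 h. Those of JFC03069_1_code are also clear of water at 25 °C/24 h (3.94-fold) and at 15 °C/3 h (6.07-fold). In JFC06162_1_code the water arrays are higher at 3 h than at 24 h at both temperatures.

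Whether the response to poly(I:C) differed between temperatures or times was tested for each probe as an interaction, the difference of 2 responses. The rule put a floor under each response and none under their difference, but it used the same arrays, and a member near the floor in one setting can differ from another setting in only 1 direction. Counts of members called are given beside the share of all tested probes called in the same direction. Counts without adjustment or from other fits have no matching share here and are not to be set against these shares. That share does not correct for the choice of members, since only 0.561% of tested probes reached the minimum in all 4 settings. The gap between count and share is thus in part set by the rule. Calls are at a limma adjusted p under 0.05, with Benjamini-Hochberg adjustment over all 13377 tested probes.

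At 24 h, the response was smaller at 25 °C than at 15 °C for 47 of the 65 members, and larger for 0. Of all tested probes 14.6% were called smaller and 9.05% larger. The median of the members was -2.33, and that of all tested probes -0.128. Without adjustment, limma gave 52 members smaller and 0 larger at a p under 0.05. The largest fitted change was in JFC08345_1_code, whose response was 6.04 lower on the log2 scale at 25 °C (SE 0.79, limma adjusted p = 1.7e-05). Only 1 of 3 of its water arrays at 15 °C/24 h and 2 of 3 at 25 °C/24 h were above background, so this size and rank rest on dim signals. Next came JFC07338_1_code, with a difference of -5.68 (SE 0.37, limma adjusted p = 7.1e-09) and all arrays of these groups above background. JFC07338_1_code had signals of -2.07, -2.32 and -1.75 with poly(I:C) at 25 °C/24 h, against -2.45, -2.54 and -3.12 with water, and 2.63, 2.74 and 2.73 with poly(I:C) at 15 °C/24 h, against -3.85, -3.32 and -3.73 with water. The lowest poly(I:C) array was 0.13 above the highest water array in warm fish and 5.95 above it in cool fish.

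At 3 h the direction was the opposite. The response was larger at 25 °C than at 15 °C for 43 members and smaller for 0, while 13.1% of all tested probes were called larger and 17.1% smaller. The median of the members was 2.20, against -0.12 for all tested probes, and without adjustment limma gave 50 members larger and 0 smaller. JFC06768_1_code led with a difference of 4.42 (SE 0.44, limma adjusted p = 8.1e-07). Its signals at 25 °C/3 h were 5.88, 6.31 and 6.45 with poly(I:C), against 1.35, 0.33 and 1.30 with water, and at 15 °C/3 h they were 1.88, 2.58 and 1.93 with poly(I:C), against 1.49, 0.95 and 1.56 with water. The lowest poly(I:C) array was 4.53 above the highest water array in warm fish and 0.32 above it in cool fish. JFC03069_1_code came next, with a difference of 4.28 (SE 0.49, limma adjusted p = 4.3e-06) between responses of 6.88 at 25 °C and 2.60 at 15 °C.

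The 24 h and 3 h comparisons share no arrays. Of the 65 members, 40 were called in both, with a larger response in warm fish at 3 h and a smaller one at 24 h. Of all 13377 tested probes, 793 (5.93%) had both calls. Among those called larger at 3 h, 40 of 43 members and 793 of 1750 tested probes had both. Among those called smaller at 24 h, 40 of 47 members and 793 of 1954 tested probes did. Slides moved with temperature in these comparisons: no slide held water arrays of both temperatures, so neither comparison can be made within 1 slide. Slides also moved with treatment at 25 °C/3 h and at 15 °C/24 h, where poly(I:C) and water shared no slide. With the slide as a block, 43 members were called smaller at 24 h, and 26 were called larger at 3 h, where the sign was kept by 64 of 65 members and the median SE was 0.72, against 0.49 without the block.

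**Figure D4:**
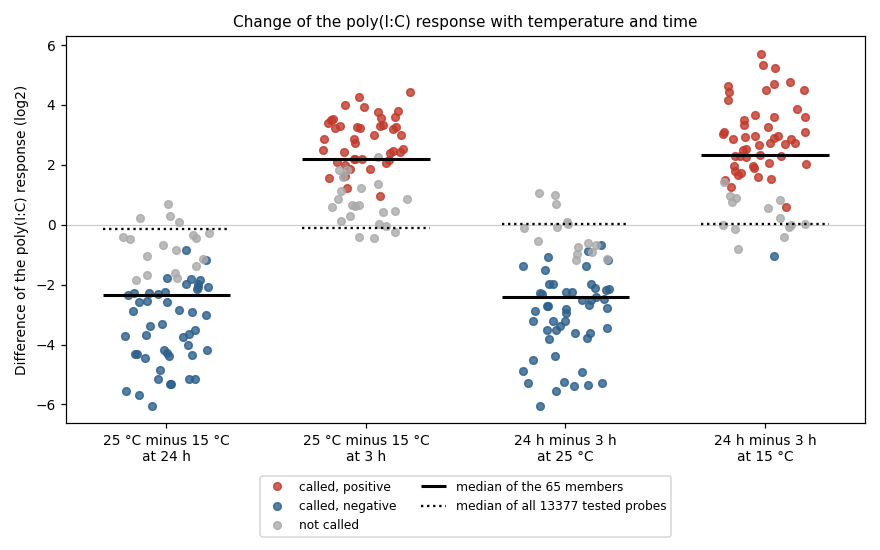
Change of the poly(I:C) response (log2) with temperature at 24 h and at 3 h, and with time at 25 °C and at 15 °C, 1 point per member, red where called positive, blue where called negative and grey where not called. Solid lines mark the medians of the 65 members (-2.33, 2.20, -2.42 and 2.32) and dotted lines those of all tested probes, which lie between -0.128 and 0.017.

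With time, the response moved in opposite directions at the 2 temperatures. At 25 °C it was smaller at 24 h than at 3 h for 50 members and larger for 0 (0 also without adjustment by limma), against 13.1% of all tested probes smaller and 12.7% larger. The median of the members was -2.42 and that of all tested probes 0.015. At 15 °C it was larger at 24 h for 50 members and smaller for 1, against 15.4% of tested probes larger and 11.9% smaller, and the median was 2.32, against 0.017. A response also grows where the water signal falls. Between 3 h and 24 h at 15 °C, the median signal of the members went from 0.94 to 2.88 with poly(I:C) and from -0.82 to -1.42 with water. JFC06162_1_code and JFC16090_1_code, both called larger, had lower poly(I:C) means at 24 h (4.53 and 1.73) than at 3 h (6.88 and 4.24). The comparisons at 25 °C and at 15 °C share no arrays, and 43 members were called in both, smaller at 24 h in warm fish and larger in cool fish, against 5.59% of all tested probes. Each shares its arrays with both temperature comparisons above, so the 4 counts are not independent of each other. Slides limit these comparisons too, since poly(I:C) and water shared no slide at 25 °C/3 h or at 15 °C/24 h. With the slide as a block, limma without adjustment (p under 0.05) gave 50 members smaller and 0 larger at 25 °C, against 51 and 0 without adjustment or block. At 15 °C the block gave 48 larger and 1 smaller, against 51 and 1 without adjustment or block. The median SE with the block was 0.59 at both temperatures, against 0.49 without it.

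At 25 °C the largest fitted losses between 3 h and 24 h were those of JFC08345_1_code, -6.04 (SE 0.79, limma adjusted p = 1.8e-05), and JFC20747_1_code, -5.54 (SE 0.40, limma adjusted p = 1.6e-08). For JFC08345_1_code, 2 of 3 water arrays were above background at each of these times, so the size of its loss rests on dim signals. JFC20747_1_code had signals of -3.81, -3.42 and -3.13 with poly(I:C) at 25 °C/24 h, against -4.59, -4.26 and -4.06 with water, a 1.81-fold difference. At 25 °C/3 h they were 2.0, 2.31 and 1.52 with poly(I:C), against -4.31, -4.85 and -4.18 with water, 2 of 3 of them above background, 84.1-fold. The water arrays stayed near the same low level, and the lowest poly(I:C) array at 24 h lay 0.25 above the highest of them at that time. At 15 °C/24 h no water array was well above background for this member, and the response was at least 35.5-fold.

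At 15 °C the largest fitted gains between 3 h and 24 h were those of JFC06782_1_code, 5.71 (SE 0.68, limma adjusted p = 5e-06), and JFC01040_1_code, 5.33 (SE 0.56, limma adjusted p = 1.2e-06). JFC06782_1_code had 0 of 3 water arrays above background in each setting but 15 °C/3 h, and JFC01040_1_code had 0 of 3 at 15 °C/24 h, so the sizes and ranks of these gains were not measured. Taken against the dimmest signals above background at 15 °C/24 h, the gain was 4.48 for JFC06782_1_code and at least 4.77 for JFC01040_1_code. The 4.48 is not a strict lower bound, since the 15 °C/3 h response of JFC06782_1_code also rests in part on arrays below background. The gain of JFC04909_1_code, named after its values were seen, was 5.23 (SE 0.49, limma adjusted p = 3.1e-07), with all arrays of the 15 °C groups above background. It was 79.8-fold at 15 °C/24 h and 2.12-fold at 15 °C/3 h. The poly(I:C) signals of JFC06782_1_code were 1.02, 0.59 and 1.03 at 15 °C/24 h, against -6.59, -5.04 and -5.39 with water, a response of at least 40.03-fold. At 15 °C/3 h they were -4.34, -3.41 and -4.08 with poly(I:C), against -5.13, -4.69 and -4.55 with water, 1.79-fold, with 2 of 3 arrays above background in each group. The response of JFC06782_1_code was at least 4.12-fold at 25 °C/24 h and at least 14.1-fold at 25 °C/3 h.

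JFC24217_1_code was the 1 member called in the other direction at 15 °C, with a response that was smaller at 24 h than at 3 h, a difference of -1.05 (SE 0.36, limma adjusted p = 0.036). Its signals were -0.32, -0.74 and -0.76 with poly(I:C) at 15 °C/24 h, against -1.82, -1.66 and -1.68 with water, and 1.05, 1.92 and 1.19 with poly(I:C) at 15 °C/3 h, against -0.87, -0.69 and -0.75 with water. It is the member whose largest response fell at 15 °C/3 h. The call did not hold with median scaling, normexp background correction or the slide as a block.

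For a minority of members the 4 responses differed little in size. For 8 members they spanned less than 1 log2 unit, against a median span of 3.20. Of these, 7 were called in none of the 4 interactions. JFC00823_1_code was called, with a response at 3 h larger by 0.95 at 25 °C than at 15 °C (SE 0.2, limma adjusted p = 0.0015). It was also called for time, with -0.69 at 25 °C (SE 0.2, limma adjusted p = 0.015) and 0.59 at 15 °C (SE 0.2, limma adjusted p = 0.034). The smallest span, 0.21, was that of JFC23294_1_code, singled out after its values were seen, with responses of 2.64-fold at 25 °C/24 h, 2.63-fold at 25 °C/3 h, 2.28-fold at 15 °C/24 h and 2.42-fold at 15 °C/3 h. Its mean at 25 °C/24 h rested on 1 array: the signals were -4.40, -0.65 and -4.12 with poly(I:C), against -5.07, -5.25 and -3.05 with water. The 2 lower poly(I:C) arrays were below the brightest water array there, and the groups also overlapped at 15 °C/3 h. Of its water arrays, 2 of 3 were above background at 25 °C/24 h and 1 of 3 at 25 °C/3 h. Each of its interactions had an SE of 1.12, so a difference of that size between settings was not detectable here.

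JFC09736_1_code and JFC18731_1_code, also singled out after their values were seen, departed from the usual order at 25 °C. Their responses were within 0.16 of each other in every setting, so they may not be independent cases. JFC09736_1_code had signals of 4.70, 3.97 and 4.08 with poly(I:C) at 25 °C/24 h, against 1.18, 1.23 and 0.55 with water, and 2.86, 3.1 and 2.36 with poly(I:C) at 25 °C/3 h, against 0.97, -0.13 and 0.87 with water. Its response was 9.58-fold at 24 h and 4.61-fold at 3 h. JFC18731_1_code had 10.3-fold and 5.15-fold responses in these settings. The increases between 3 h and 24 h, 1.06 (SE 0.64) and 1.0 (SE 0.67), did not pass the test (limma adjusted p = 0.25 and 0.30). At 15 °C both members behaved like most of the set, with a gain of 3.09 for JFC09736_1_code (SE 0.64, limma adjusted p = 0.0014) and of 3.03 for JFC18731_1_code (SE 0.67, limma adjusted p = 0.0022).

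Some members followed each other closely over the settings. JFC10762_1_code and JFC10762_2_code share a contig number, and their responses differed by at most 0.19 in any setting. The first had 4.01-fold, 156.7-fold, 142.4-fold and 19.8-fold responses at 25 °C/24 h, 25 °C/3 h, 15 °C/24 h, and 15 °C/3 h, and the second had 4.33-fold, 175.7-fold, 124.8-fold and 18.8-fold. The codes do not say whether both belong to 1 transcript. The responses of JFC27511_1_code and JFC20823_1_code, whose contig numbers differ, were within 0.05 of each other in all 4 settings. Those of JFC27229_1_code and JFC11502_1_code were within 0.14. A gap of at most 0.16 was found for JFC10762_1_code and JFC05979_1_code, and for JFC09736_1_code and JFC18731_1_code. These pairs were chosen after the values were seen, and members of a pair may not be independent measurements.

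Across the 65 members, the responses at 25 °C/3 h and at 15 °C/24 h ranked the members alike, with a Pearson r of 0.91 and a Spearman rho of 0.89. These settings share no arrays, but the points share the rule and the brightness of each probe, so the correlation is a description. For 28 members the response at 25 °C/3 h was the larger of this pair. Between 25 °C/24 h and 15 °C/3 h, the settings with small responses, r was 0.28 and rho 0.11. The other pairs of settings lay between, with r from 0.39 (25 °C/24 h and 25 °C/3 h) to 0.73 (25 °C/3 h and 15 °C/3 h).

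The signal of the members in water-treated fish was not used by itself to choose them, although the water arrays entered each difference. With temperature, a change in water was called for 13 members at 24 h and for 13 at 3 h. At both times the median size of the difference, sign left aside, was 0.51 for members and 0.34 for all tested probes. At 24 h, 6 members were higher and 7 lower at 25 °C than at 15 °C, 9.23% and 10.8% of the set, against 17.5% and 10.4% of all tested probes. The median difference was 0.10 for members and 0.08 for all tested probes. JFC20747_1_code was higher by 1.39 (SE 0.29, limma adjusted p = 0.0015) and JFC27604_1_code by 1.32 (SE 0.38, limma adjusted p = 0.014). For JFC20747_1_code all 3 water arrays at 25 °C were well above background and 0 of 3 were at 15 °C, where the difference is at least 1.1-fold. JFC29020_1_code was lower, with a difference of -2.05 (SE 0.29, limma adjusted p = 8.1e-05), with signals of -3.63, -4.74 and -3.28 in water at 25 °C and -1.70, -1.79 and -2.01 at 15 °C. JFC25217_1_code was also lower, with -1.68 (SE 0.51, limma adjusted p = 0.021). None of the calls named for 24 h held with normexp background correction. With the slide as a block only that of JFC29020_1_code held (limma adjusted p = 0.047).

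At 3 h, 2 members were higher and 11 lower in water at 25 °C than at 15 °C, 3.08% and 16.9% of the set, against 14% and 13.5% of all tested probes. The median was -0.28 for members, 44 of which had a negative difference, and -0.002 for all tested probes. JFC10762_2_code was lower, with a difference of -1.48 (SE 0.51, limma adjusted p = 0.037). Its signals were 1.63, 0.49 and 2.23 in water at 25 °C and 3.08, 2.14 and 3.56 at 15 °C. These arrays overlap. With 1 array left out in turn, its limma adjusted p ran from 0.018 to 0.18. JFC10762_1_code, which shares its contig number, was not called, with a difference of -1.09 (SE 0.5, limma adjusted p = 0.11). JFC20191_1_code was lower, with -1.28 (SE 0.28, limma adjusted p = 0.0025), and its signals of -3.29, -4.28 and -2.86 at 25 °C did not overlap those of -2.36, -1.96 and -2.28 at 15 °C. JFC09949_1_code was higher by 1.03 (SE 0.37, limma adjusted p = 0.044) and JFC10812_1_code by 0.72 (SE 0.24, limma adjusted p = 0.033). The calls of JFC09949_1_code and JFC10812_1_code did not hold with median scaling. Leaving out 1 array in turn gave a limma adjusted p from 0.038 to 0.12 for JFC09949_1_code and from 0.0043 to 0.15 for JFC10812_1_code. None of the calls named for 3 h held with normexp background correction. In a fit of only the compared groups, only that of JFC09949_1_code held (limma adjusted p = 0.033). With the slide as a block 2 members were called at 24 h and 0 at 3 h (limma, with 2 higher and 4 lower at an unadjusted p under 0.05), and the median SE of a member's temperature difference at 3 h was 0.70 in place of 0.35. Slide and temperature cannot be told apart in water-treated fish, since no slide held water arrays of both.

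With time after water, 9 members were lower at 24 h than at 3 h at 25 °C and 0 higher, 13.8% of the set, against 3.18% of all tested probes lower and 4.48% higher. At 15 °C, 8 members were lower and 0 higher, 12.3% of the set, against 0.852% lower and 0.0673% higher. Without adjustment, limma gave 14 lower and 1 higher at 25 °C, and 26 lower and 5 higher at 15 °C. The shares above are for adjusted p and are not comparable with these counts. The median of the members was -0.10 at 25 °C and -0.60 at 15 °C, where 52 of 65 had a negative difference, against 0.049 and -0.022 for all tested probes. In a fit of only the compared groups, 0 members were called at 25 °C, with 13 lower at an unadjusted p under 0.05 by limma. These comparisons share no arrays, and 6 members were called lower in both, against 0.321% of all tested probes.

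JFC06162_1_code and JFC16090_1_code were the most changed at both temperatures. Their responses were close at 25 °C/24 h (2.45 and 2.2), 25 °C/3 h (4.69 and 4.69), 15 °C/24 h (5.47 and 5.58) and 15 °C/3 h (3.57 and 3.84). They may thus not be independent cases. JFC06162_1_code, whose array values in water are given above, was lower at 24 h than at 3 h, with a difference of -2.90 at 25 °C (SE 0.35, limma adjusted p = 0.0001) and of -4.25 at 15 °C (SE 0.35, limma adjusted p = 3.5e-06). JFC16090_1_code had signals of -2.42, -3.26 and -4.07 in water at 25 °C/24 h, against -0.53, -1.16 and 0.01 at 3 h, a difference of -2.69 (SE 0.37, limma adjusted p = 0.00028). At 15 °C it had -4.59, -3.19 and -3.75 at 24 h, against 0.27, 0.53 and 0.38 at 3 h, a difference of -4.24 (SE 0.37, limma adjusted p = 4.2e-06), with 2 of the 3 arrays at 24 h above background. The 24 h and 3 h water arrays of both members were apart at both temperatures. At 25 °C neither call held in a fit of only the compared groups, with limma adjusted p = 0.07 for JFC06162_1_code (5.9e-05 to 0.07 over the alternatives) and 0.078 for JFC16090_1_code (0.00017 to 0.078), and JFC16090_1_code had an adjusted p of 0.069 with normexp background correction. Untreated fish were not analysed here, so whether the 3 h level was raised or the 24 h level lowered relative to fish given nothing was not measured.

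**Figure D5:**
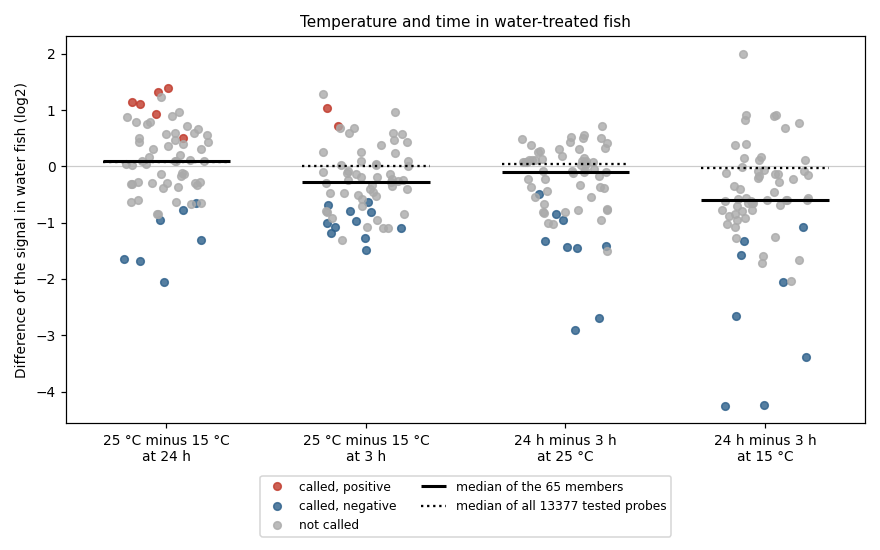
Differences in signal (log2) between groups of water-treated fish, 25 °C minus 15 °C at 24 h and at 3 h and 24 h minus 3 h at 25 °C and at 15 °C, 1 point per member, red where called positive, blue where called negative and grey where not called. Solid lines mark the medians of the 65 members (0.10, -0.28, -0.10 and -0.60), and the lowest points of both time comparisons are JFC06162_1_code and JFC16090_1_code.

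The slides also bear on the responses that define the set. Slide 1 held the poly(I:C) arrays at 15 °C and 2 of the water arrays at 15 °C/3 h. Slide 2 held the water arrays at 15 °C/24 h, the other water array at 15 °C/3 h, the poly(I:C) arrays at 25 °C/3 h and 1 at 25 °C/24 h, and slide 3 held the water arrays at 25 °C and the other 2 poly(I:C) arrays at 25 °C/24 h. With the slide as a block, 63 members kept a response of at least 0.58 at 25 °C/24 h, 65 at 25 °C/3 h, 65 at 15 °C/24 h and 60 at 15 °C/3 h, with medians of 1.30, 3.60, 3.63 and 1.30. Within slide 3 alone (2 poly(I:C) arrays against 3 water arrays) 63 members reached 0.58 at 25 °C/24 h, and within slide 1 alone (3 against 2) 60 did so at 15 °C/3 h. These counts equal those with the block by construction, so they are no second check. For 25 °C/3 h and for 15 °C/24 h, poly(I:C) and water lay on different slides throughout. These were the settings with the large responses. Each interaction set 1 of them against a setting in which poly(I:C) and water shared a slide in part. Slide and the difference of responses thus cannot be fully told apart. The slide block rests on the groups split between slides, water at 15 °C/3 h and poly(I:C) at 25 °C/24 h. In each of them 1 array lay on a different slide from the other 2. The correction for the settings with the large responses thus hangs on 1 array per pair of slides.

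The array also held 351 tested probes whose targets are not JFC contigs, and 10 of these met the same 4 differences. Their median responses were 1.29 at 25 °C/24 h, 4.63 at 25 °C/3 h, 4.95 at 15 °C/24 h and 2.59 at 15 °C/3 h, so the early warm and late cool settings were again the larger ones, as a description of probes that met the rule.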

How the data were processed

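Each of the 24 deposited scanner files holds spot intensities, linear and corrected for background by Agilent Feature Extraction, with no scaling to other arrays, per the file headers. Its version is 10.7.3.1 in those headers but 9.5.3.1 in the submitters' processing notes. The deposited value table holds the authors' log2 values, whose method is not given in the sources used here. After removal of 1 constant per probe, 100.0% of them were within 0.02 of the values computed here from the scanner files, so their scale and direction are known and the centring of each probe is not (column medians -0.16 to 0.11). The table gave the 4 differences that chose the 65 members. Their ranges and medians, and the size classes, spans, correlations and gaps between pairs drawn from them, also come from the table. Array signals, folds of single members and tests come from the scanner files.

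Here log2 processed signals were averaged over the spots of a probe, without spots marked as outliers (2 to 22 per array), and the 75th percentile of each array (348.1 to 863.5 units) was subtracted. No spot was saturated. The share of probes well above background was 78.4% to 95.0% per array. At 15 °C/24 h it was 94.2, 91.2 and 83.6% with poly(I:C), against 83.9, 78.4 and 81.6% with water. At 25 °C/3 h it was 88.4, 91.1 and 87.7%, against 85.7, 85.5 and 86.8%. At 15 °C/3 h it was 80.6, 84.2 and 83.5%, against 89.0, 92.5 and 88.8%. At 25 °C/24 h it was 91.0, 88.4 and 86.1%, against 95.0, 90.3 and 92.5%. Whether this share bears on the size of the responses was not tested. The number of arrays limits the precision. Probes well above background on 3 of 3 arrays of a group (13377) were fitted with limma 3.58.1 in R 4.3.3 as 8 group means (lmFit, eBayes, 16 residual degrees of freedom), and p-values were adjusted by Benjamini-Hochberg over all of them within each of 8 comparisons, 4 in water-treated fish and 4 interactions. The steps were tested on simulated data. The members and comparisons were chosen with earlier results of these data known. By rule, each comparison names at most 2 members higher and 2 lower, by largest change among the called (for the responses, the largest and those with the largest minimum over settings), and others are said to be chosen after their values were seen. Cell type markers were not matched, since probe targets are contig codes or database accessions, the files pair none with a gene name, and 0 of them were found in the gene table. Alternatives were median and quantile scaling, background correction by normexp (offset 50, on median spot signals, since the files hold no mean signals), the value table, 2 other filters, the slide as a fixed or random block, the replicate number as a block, a stricter threshold, only the compared groups, and each array left out in turn.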

Additional observations from a re-analysis of the deposited data

Results flagged for a closer look

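The results in this part were marked because the response to poly(I:C) differed between temperatures or times by a test of the difference itself (limma interactions). At 24 h, 47 of the 65 members were called smaller at 25 °C than at 15 °C, against 14.6% of all tested probes, with -6.04 for JFC08345_1_code and -5.68 for JFC07338_1_code. At 3 h, 43 were called larger at 25 °C, against 13.1%, with 4.42 for JFC06768_1_code and 4.28 for JFC03069_1_code. Between 24 h and 3 h, 50 were called smaller at 24 h at 25 °C, against 13.1%, with -6.04 for JFC08345_1_code and -5.54 for JFC20747_1_code. At 15 °C, 51 were called, 50 of them larger at 24 h, against 15.4%, and 1 smaller, against 11.9%. The values were 5.71 for JFC06782_1_code, 5.33 for JFC01040_1_code and -1.05 for JFC24217_1_code. The first 2 were fitted against water arrays below background at 15 °C/24 h. Taken against the dimmest signals above background there, they were 4.48, which is not a strict bound, and at least 4.77. The values of JFC08345_1_code rest in part on dim water arrays, not all of them above background. Each temperature comparison shares arrays with each time comparison. Every comparison also involves a setting in which poly(I:C) and water lay on different slides. The members were chosen by these same responses, and the shares of all tested probes do not correct for that choice.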

How the results depend on the processing

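The 4 interaction counts of 47 and 43 (temperature, at 24 h and 3 h) and 50 and 51 (time, at 25 °C and 15 °C) stayed within a factor of 1.5 under all alternatives run, except 26 in place of 43 with the slide as a block. Leaving out each array in turn gave 44 to 48, 40 to 48, 47 to 52 and 46 to 49. Median scaling moved the median of all tested probes by 0.26 for temperature at 3 h and -0.11 for time at 25 °C, and by 0.12 and 0.22 for the responses at 25 °C/24 h and 25 °C/3 h. Quantile scaling moved it by 0.16 and 0.11 for temperature at 24 h and 3 h and by 0.14 for the response at 25 °C/24 h. The medians of the members in the 4 interactions were then -2.26, 2.46, -2.52 and 2.41, and -2.20, 2.08, -2.01 and 2.24. The counts in water-treated fish were less stable. For temperature at 24 h, 13 became 2 with normexp, 2 with the slide block and 5 at an adjusted p under 0.01, and 7 to 17 with 1 array left out, the 7 without replicate 2 of water at 25 °C/24 h. With quantile scaling the split was 6 higher and 11 lower, against 6 and 7. For temperature at 3 h, 13 became 4 with normexp, 3 with only the compared groups, 0 with the slide block (limma, 6 at an unadjusted p under 0.05), 4 at an adjusted p under 0.01, and 9 to 14 with 1 array left out. With median scaling the split was 0 higher and 13 lower, against 2 and 11. For time at 25 °C, 9 became 2 with normexp, 0 with only the compared groups (limma, 13 at an unadjusted p under 0.05), 5 at an adjusted p under 0.01, and 5 to 9 with 1 array left out, the 5 without replicate 1 of water at 25 °C/24 h. For time at 15 °C, 8 became 4 with normexp, 5 with probes above background on all arrays, where 53 members were left to test, 5 at an adjusted p under 0.01, and 5 to 8 with 1 array left out, the 5 without replicate 3 of water at 15 °C/24 h. The number of members, 65, became 39 with normexp and 25 with a minimum difference of 1, and ran from 53 (without replicate 2 of poly(I:C) at 15 °C/3 h) to 74 with 1 array left out. Quantile scaling gave 77 (63 of them shared), median scaling 73 (62 shared) and the slide block 83 (58 shared). Apart from fewer members to test or fewer arrays, the cause of these changes was not tested. Of the 21 values of named members, alternatives left 329 of their calls in place and ended 53 with the sign kept, mostly in water, and turned 0. No pairing of arrays by replicate number was seen on average. Over 84 pairs of arrays with the same number in different groups, the correlation of their deviations ran from -0.39 to 0.31. Its median was -0.006, against -0.005 over 168 pairs with different numbers. It was over 0.1 for 20 of the 84 pairs, and pairing between particular groups was not tested. With the replicate number as a block, 13, 11, 9 and 7 members were called in water and 47, 45, 50 and 51 in the interactions, in the order given here.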
